A study of Drosophila melanogaster with 46 samples.

Results

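DGRP_25208 is 1 of the inbred Drosophila melanogaster strains that make up the DGRP, the Drosophila Genetic Reference Panel, each bred from a wild-caught female. Its chromatin accessibility was set against that of 22 other DGRP lines. The line was chosen by its label and has 2 of the 31 libraries of the panel, replicate 1 without and replicate 2 with the suffix IR in the title. The other 22 lines have 29 libraries, 15 without and 14 with the suffix, whose meaning the labels do not give. All libraries were made by ATAC-seq from eye-antennal discs dissected by hand from wandering 3rd instar larvae raised on normal food at 25 degrees. No treatment, transgene or Cre is named for any of these lines, and the labels do not say how many larvae or discs went into a library or whether the 2 libraries of a line came from separate dissections. The p-values therefore measure the spread between the libraries of a line, in the 8 lines with 2 libraries, which may be technical. Differences between the other lines do not enter that spread. The series has 46 samples in all and asked at which loci the open chromatin of a strain depends on its sequence.

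In ATAC-seq the Tn5 transposase cuts DNA that is free of nucleosomes, and the reads that pile up there mark promoters, enhancers and other open sites. The eye-antennal disc is the larval epithelium that forms the adult eye, antenna and head capsule. An inbred line is fixed for its own set of base changes, small insertions and deletions and mobile element insertions. Each of these can change the accessibility of a site or the number of reads that can be placed there, and a count alone does not separate these cases. The deposited table names regions by position on dm3 and holds no gene names, so regions are given by coordinates as deposited, with no gene, exon or intron.

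The line was shallowly sequenced. Replicate 1 had 1110755 counts over the 30774 regions and replicate 2 had 3359736, against 2647425 to 12758783 in the other libraries. In replicate 1, 253 regions had no count and 9387 had fewer than 10, and in replicate 2 these numbers were 76 and 5181. The 2 libraries also stood far apart on the first principal component of the other 29 libraries, which held 39.7% of their variance. Replicate 1 scored 50.5 and replicate 2 scored -35.1, while the other libraries ran from -33.9 to 70.0. Results of the comparison are therefore given with and without that component as a covariate.

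Both libraries deviated the same way from the mean of their own kind, with or without the suffix, in 14263 of 30774 regions (46.3%). Deviations were taken on log2 CPM, where CPM are counts scaled to a common library size and the prior count was 2. Both were higher in 6360 regions and lower in 7903, and in 16511 the 2 libraries lay on opposite sides. Over regions above the median level the deviations of the 2 libraries had r = -0.033 and rho = 0.12 across regions, which are not independent replicates. With the first component removed, r was 0.38 and 58.9% of all regions went the same way. In the 7 other lines with 2 libraries r ran from -0.41 to 0.55 as measured. With the component removed in the same way it ran from 0.17 to 0.47, and 51.9% to 60.1% of regions went the same way. Each DGRP_25208 library was then correlated with the libraries of other lines of the other kind. These values reached at most 0.17 over 14 libraries for replicate 1 and 0.22 over 15 for replicate 2. As measured, without that removal, 4 of the 14 and 8 of the 15 lay above the line's own value.

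**Figure D1:**
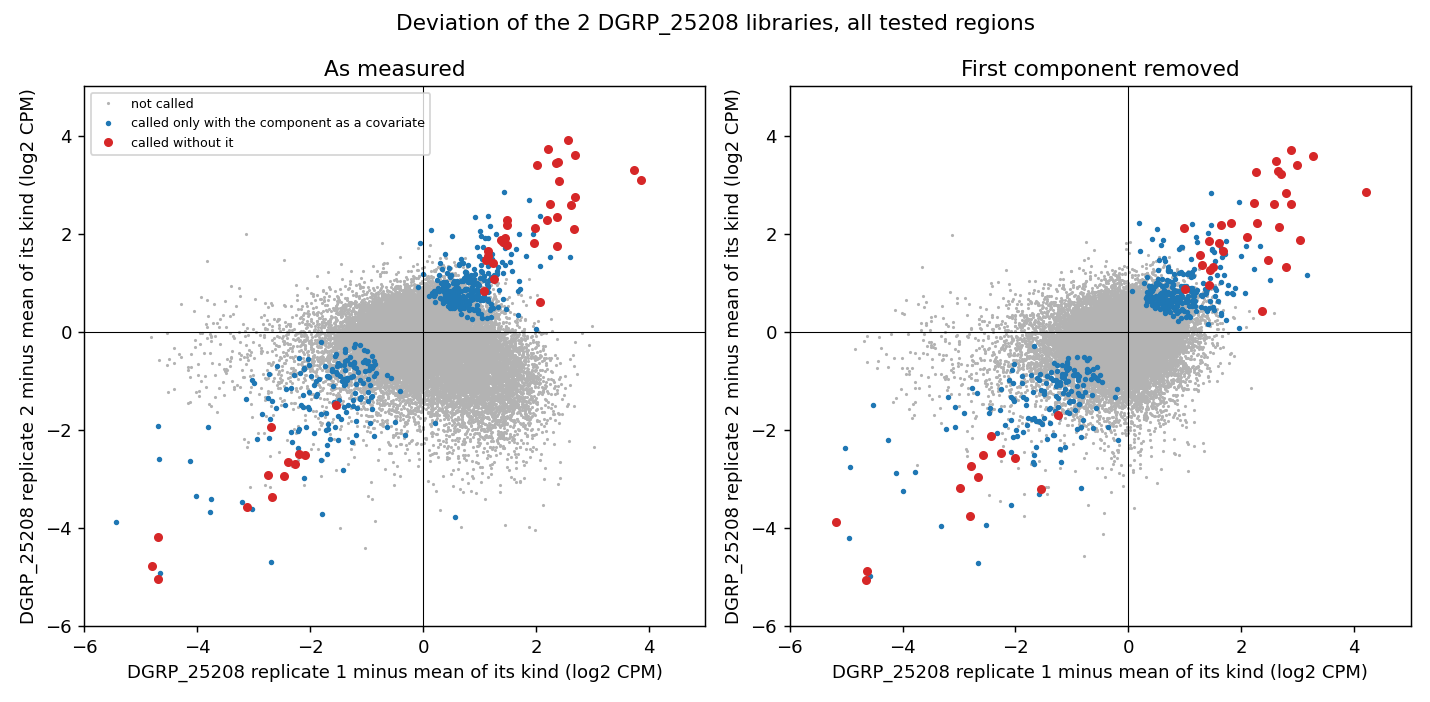
Each point is 1 tested region, with the deviation of DGRP_25208 replicate 1 from the mean of the other libraries of its kind on the x axis and that of replicate 2 on the y axis, both in log2 CPM. The left panel shows values as measured (r = -0.033 above the median level) and the right panel values after the first component of the other 29 libraries was removed (r = 0.38). The 44 called regions, in red, lie in the lower left and upper right corners of the left panel.

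The line differed from the mean of the other 22 lines in 44 of 30773 tested regions, 0.143% of those tested (edgeR quasi-likelihood test, Benjamini-Hochberg adjusted p under 0.05). Accessibility was higher in DGRP_25208 in 31 regions (0.101%) and lower in 13 (0.0422%). Both libraries deviated the same way in all 44, by at least 2-fold in 42 and at least 4-fold in 26. The fitted log2 fold change had a median size of 2.49 and was at least 0.99 in size. In 25 of the 44, 16 higher and 9 lower, both DGRP_25208 libraries lay beyond every one of the 29 other libraries, against 1.98% of all tested regions (0.76% above and 1.22% below). The 44 were called from these same 2 libraries. Their shared direction, their size and their place outside the range are therefore largely set by the calling and are given as a description. With replicate 2 alone 1 region passed, and with replicate 1 alone edgeR called 0, with 2538 at an unadjusted p under 0.05. The call therefore rests on having both libraries of the line. The direction was the same in all 44 regions with either library alone. That was largely fixed in advance, since both libraries deviated the same way in all 44, and adds no support. The last region inside the threshold, 2R:11586185-11586925, had an adjusted p of 0.0480, and the first outside it, X:20913811-20914437, had 0.0502.

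The regions with the smallest p are described first, labelled A to F where the line was higher and G to L where it was lower. Region A, 3L:17733454-17733946, had the smallest p of all. It had 54 and 150 counts in DGRP_25208, or 5.54 and 5.62 log2 CPM, against 2.03 to 4.28 with a median of 2.79 in the other 29 libraries. Both libraries of the line were above all others, and the log2 fold change was 2.77 (SE 0.17, edgeR adjusted p = 0.000165). It was the one region that passed with replicate 2 of the line alone (adjusted p = 0.0193); with replicate 1 alone the adjusted p was 0.0651. Region E, 2R:5032424-5033503, was raised less. It had 5.85 and 6.43 log2 CPM in DGRP_25208, against 4.17 to 5.66 with a median of 4.79 in the other libraries. The groups did not overlap, and the log2 fold change was 1.32 (SE 0.15, edgeR adjusted p = 0.00838).

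Region F, 2L:4009407-4009798, was a weak site in most lines. It held 21 and 45 counts in DGRP_25208, or 4.19 and 3.91 log2 CPM, against -0.24 to 4.10 with a median of 1.46 in the other libraries. A single library, that of DGRP_28262, reached the line's lower value. The log2 fold change was 2.53 (SE 0.29, edgeR adjusted p = 0.0111).

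Regions B, C and D, X:21595215-21597045, X:4990659-4992284 and 3R:3526969-3528781, were long and shared 1 pattern. Region B had 79 and 588 counts in DGRP_25208, or 6.09 and 7.59 log2 CPM, against 1.41 to 5.81 with a median of 3.20 in the other libraries. Region C had 5.93 and 7.06 in DGRP_25208 against 0.75 to 5.81 with a median of 2.89, and region D had 5.78 and 7.40 against 1.18 to 5.85 with a median of 3.22. Replicate 2 was the higher library of the line each time. No other library reached the line in B and C, and that of DGRP_25185 did in D. The log2 fold changes were 3.23, 3.06 and 3.02, with SE of 0.31, 0.31 and 0.32 (edgeR adjusted p = 0.00663, 0.00701 and 0.00837).

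**Figure D2:**
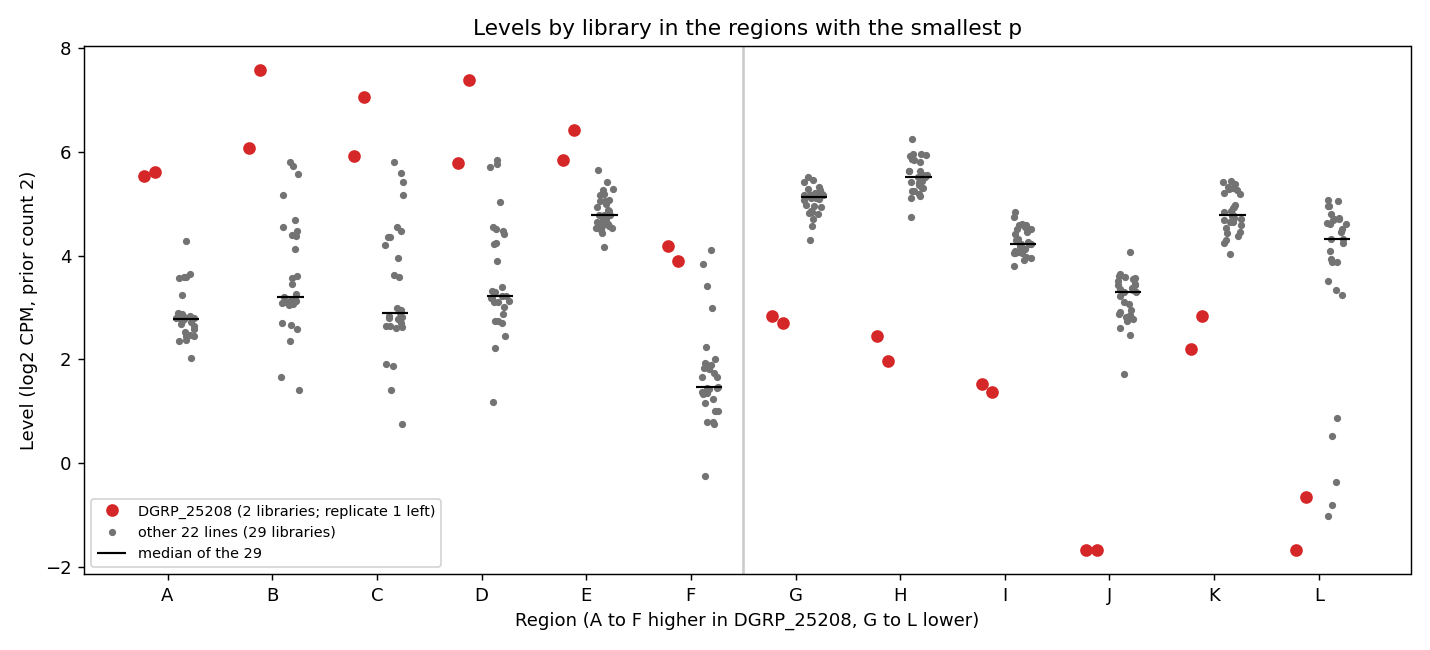
Level in log2 CPM of the 6 higher (A to F) and 6 lower (G to L) regions with the smallest p. The 2 red points of each region are the DGRP_25208 libraries, replicate 1 on the left, and the grey points to their right are the 29 libraries of the other 22 lines with their median as a bar. The groups overlap only in D, F and L.

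Among the lower regions, G to K held few reads in the line and many in every other library. Region G, 3R:12817051-12817873, had 8 and 19 counts in DGRP_25208, or 2.84 and 2.70 log2 CPM, against 4.30 to 5.51 with a median of 5.13 in the other libraries. The log2 fold change was -2.39 (SE 0.24, edgeR adjusted p = 0.00701). Region H, 3L:14413916-14414427, had 6 and 11 counts in the line, against 113 to 679 in the other libraries. On the log2 CPM scale it stood at 2.45 and 1.96 in DGRP_25208 against 4.75 to 6.25, a log2 fold change of -3.49 (SE 0.38, edgeR adjusted p = 0.00837). Neither region had any other library at the level of the line.

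Region I, 3R:630103-630416, had 3 and 7 counts in DGRP_25208 against 44 to 208 in the other libraries. The mean CPM of the other libraries was 8.22 times that of the line (edgeR adjusted p = 0.00838). Region K, 2L:19378564-19379075, had 5 and 21 counts in DGRP_25208 against 75 to 355, and its log2 fold change was -2.28 (SE 0.29, edgeR adjusted p = 0.0129). In both, all 29 other libraries were above the line.

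Region J, 3R:19145678-19145994, had 0 counts in both DGRP_25208 libraries. Every other library had reads there, from 20 to 109 counts with a median of 59. Against the limit that a count of 0 allows, 3 counts over both libraries, the line was at least 12.95-fold lower than the mean of the other libraries (edgeR adjusted p = 0.0119). Region L, 3R:7808902-7809348, had 0 and 1 count in DGRP_25208. The other libraries had 2 to 299 counts with a median of 116, and those of DGRP_28153 and DGRP_28243 were as low as the line (edgeR adjusted p = 0.0145). The mean CPM of the other libraries was 77.2 times that of the line, with an exact 95% Poisson interval of 13.9 to 3049.6. Such intervals cover counting error only, and the DNA of the lines was not examined here.

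Of the 13 lower regions, 5 held at most 3 counts over both DGRP_25208 libraries. Besides J and L these were 3R:27897774-27898072 with 0 and 1 count, 3L:22755409-22755854 with 1 and 2, and X:21333897-21334293 with 1 and 2. The other 29 libraries held 13 to 161 counts in the first of these, 8 to 196 in the second and 5 to 154 in the third. On the log2 CPM scale no other library reached the line in the first and second, and 1 of DGRP_28123 did in the third. No count was found in either DGRP_25208 library in 16 regions. In 3 of these, J, 2R:5251305-5251538 and X:3200775-3201104, the median count of the other libraries was 20 or more, and the last 2 did not pass the edgeR test (adjusted p = 0.200 and 0.292). The other 7 lines with 2 libraries had 0 or 1 such region each, and each of them had more counts in all than DGRP_25208. The limma voom test called none of the 13 lower regions, and DESeq2 called 11 of them. With every library thinned to the depth of the shallowest, 5 of the 13 passed, namely G, H, I, J and 3L:12908710-12909313, while K did not (edgeR adjusted p = 0.147), nor did L.

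The long higher regions ran together across the panel. Of the 31 higher regions 9 were 1500 bp or longer (29.03%), against 627 of 30773 tested regions (2.04%), and the median length of the higher regions was 739 bp against 456 bp over all tested. In 7 of the 9, lying on 2L, 3L, 3R and X and 1534 to 2172 bp long, the levels varied in parallel over the 29 libraries of other lines. With the mean of each kind removed, their 21 pairwise correlations over those 29 libraries ran from 0.95 to 0.98 (Pearson's r) and from 0.89 to 0.97 (Spearman's rho). The points share libraries and lines, and the 7 were picked after their values were seen, so these values describe them only. The mean profile of the 7 was built from these same regions, which partly set their own r with it. Over all tested regions the 7 were the only ones with r of 0.95 or more with that profile, and 9 regions had 0.90 or more. The other 2 of these 9, X:10243035-10243302 and X:10250037-10250281, lie beside a member of the 7, X:10248483-10250016.

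The 7 were taken from regions called higher in DGRP_25208, so the line's place at the top of their profile was set by that choice and is given as a description. The median level of the 7 regions was 5.89 log2 CPM in replicate 1 and 7.12 in replicate 2, against 1.30 to 5.85 with a median of 3.12 in the other libraries. The next were the libraries of DGRP_25185 at 5.85, DGRP_25199 at 5.71 and DGRP_28206 at 5.65. By these medians replicate 1 of DGRP_25208 thus lay barely above DGRP_25185, whereas replicate 2 was clear of all others. At 3R:26899913-26902084, however, DGRP_25185 stood at 7.57 log2 CPM, above both DGRP_25208 libraries at 6.24 and 7.20. In the rest of the 7 regions replicate 2 was above every other library. The lowest were the library of DGRP_25174 at 1.30 and replicate 1 of DGRP_28123 at 1.41. The 2 libraries of a line were not always alike, with 1.41 and 2.75 in DGRP_28123 and 2.36 and 4.13 in DGRP_28262. In the line test the 7 had log2 fold changes from 2.62 to 3.23 (edgeR adjusted p from 0.00663 to 0.0262), and replicate 2 deviated more than replicate 1 in all 7. Besides B, C and D they were 3R:26899913-26902084, 3L:20475298-20477047, 2L:3257067-3259004 and X:10248483-10250016. Whether the 7 share reads was not tested. Without them 24 higher regions were called.

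**Figure D3:**
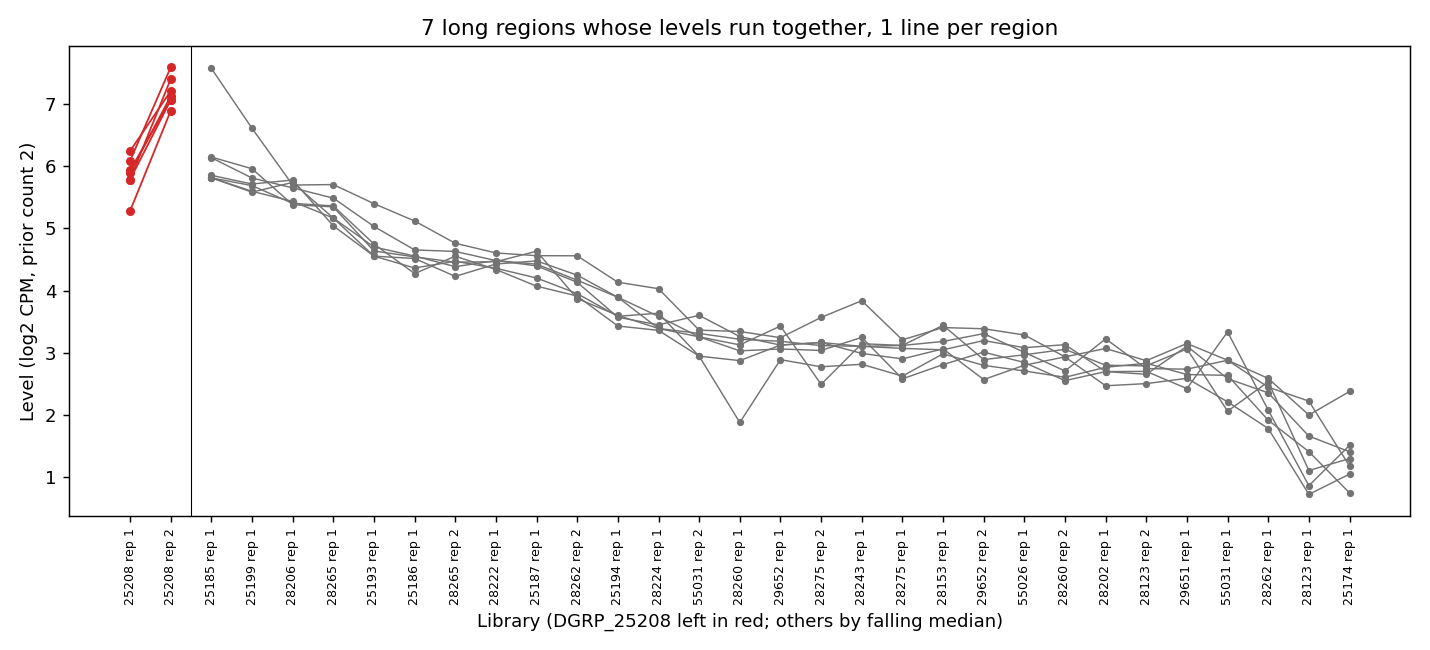
Level in log2 CPM of the 7 long called regions in every library, 1 line per region. DGRP_25208 is on the left in red, with medians of 5.89 and 7.12, and the other 29 libraries follow in grey by falling median, from 5.85 to 1.30. The 7 lines follow each other along the axis, with a wider spread in some libraries, such as 5.81 to 7.57 in DGRP_25185.

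Several called regions lay within 10000 bp of each other. On 3R, 11731715-11732483 and 11733907-11734645 were 1424 bp apart and both higher. The first had 6.47 and 6.93 log2 CPM in DGRP_25208 against 4.19 to 6.12 in the other libraries, and the second 6.91 and 7.41 against 4.36 to 6.38. In neither did any other library reach the line, and the log2 fold changes were 1.59 and 1.66 (edgeR adjusted p = 0.0382 and 0.0176). On X, 12988069-12988713 and 12993801-12994478 were 5088 bp apart, with log2 fold changes of 1.16 and 1.86 (edgeR adjusted p = 0.0480 and 0.0129). On 3L, 12908710-12909313 and 12917437-12917843 were both lower, with log2 fold changes of -2.62 and -2.84 (edgeR adjusted p = 0.0382 and 0.0262). The first of these had 3.00 and 2.97 log2 CPM in DGRP_25208 and a median of 6.03 in the other libraries, of which 1 each of DGRP_29651 and DGRP_29652 was as low. The second, 8124 bp away, was as low in libraries of DGRP_28123 and DGRP_28224, so the lines that shared the low level were not the same in the pair. These 3 pairs were the only called neighbours within 10000 bp.

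Other lines reached the level of DGRP_25208 in 15 of the higher and 4 of the lower regions. DGRP_25185 did so most often, in 8 regions, followed by DGRP_25199 and DGRP_28123 in 4 each. Those of DGRP_25185 include D, 2L:3257067-3259004, 3R:26899913-26902084, 3L:20475298-20477047 and X:10248483-10250016, all among the 7 long regions that ran together. The last 3 of these were also reached by DGRP_25199. These counts therefore hold 1 shared profile more than once, and no share over all tested regions is given. The region 3R:24766059-24766946 had 5.95 and 5.58 log2 CPM in DGRP_25208 against a median of 2.88 in the other libraries. The libraries of DGRP_25185, DGRP_25194 and DGRP_55026 were as high (edgeR adjusted p = 0.0204). The region 3L:15290369-15291043 was the most widely shared. It had 5.99 and 5.96 log2 CPM in DGRP_25208, while the other libraries ran from -0.43 to 7.88 and 13 of them, from 11 lines, were at or above the line (edgeR adjusted p = 0.0382). The median of the other libraries was 5.63 log2 CPM, and their mean CPM was 0.886 times that of the line. The log2 fold change of 1.78 is against the mean of the line coefficients on the log scale. There the line differed from the mean of lines that themselves fell far apart.

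When the fit carried the first component as a covariate, the line differed in 463 regions (1.5%), 287 higher (0.933%) and 176 lower (0.572%), and all 44 regions were among them. Both libraries deviated the same way as measured in 458 of the 463. The smallest p of this fit again belonged to region A (edgeR adjusted p = 7.75e-08), followed by region C and 3R:11733907-11734645 (1.33e-06 each). Among the lower regions with the smallest p in this fit, 3R:25441666-25442694 had not passed without the covariate in edgeR. It had 4.44 and 4.38 log2 CPM in DGRP_25208 against 4.43 to 7.67 with a median of 6.91 in the other libraries (edgeR adjusted p = 0.000121, and 0.0991 without the covariate, where DESeq2 gave 1.12e-06). The library of DGRP_25185 was as low. The 463 regions formed 47 neighbouring pairs within 10000 bp, and 39 of these had the same direction on both sides. Over the other 29 libraries the levels of the 44 regions had a median |r| with the component of 0.24, against 0.47 over all tested regions. The 44 were called without the covariate, where a region that follows the component differs between libraries of a line with unlike scores. Their low |r| can therefore be set by the calling and is a description only.

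Some regions lay outside the range of the panel without passing the test. Above the median level both DGRP_25208 libraries were above all 29 others in 184 of 15387 regions (1.2%) and below all of them in 102 (0.663%). The widest gap above among these was at X:19539827-19540276, with 5.25 and 5.42 log2 CPM in DGRP_25208 against 3.58 to 4.55. It had an edgeR adjusted p of 0.0598, and 0.00309 with the component as a covariate. At X:8575262-8576352 the values were 6.39 and 6.75 in DGRP_25208 against 4.69 to 5.94 (edgeR adjusted p = 0.0556, and 0.000358 with the component). Of the low regions 2L:16255404-16256085 had 3.62 and 3.81 in DGRP_25208 against 4.68 to 6.38 (edgeR adjusted p = 0.217, and 0.000673 with the component). The groups do not overlap in these 3 regions. DESeq2 called all 3 without the covariate (adjusted p = 0.00710, 0.000496 and 0.00284), and limma voom called none.

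Above the median level, 78 of 15387 regions (0.507%) lay at least 2-fold from the mean of their kind in both DGRP_25208 libraries, 26 higher (0.169%) and 52 lower (0.338%). The 7 other lines with 2 libraries had 38 to 164 such regions, and the 91 of DGRP_28123 were the nearest count above. Lower regions outnumbered higher ones in 6 of those 7, DGRP_28275 being the exception with 137 higher and 27 lower. With the first component removed DGRP_25208 had 17 higher and 60 lower regions, and DGRP_28275 had 10 higher and 16 lower. Of the 6 lower regions with the greatest deviation shared by both libraries, 2L:1999711-2000507 had 4 and 8 counts in DGRP_25208, or 1.90 and 1.55 log2 CPM, against a median of 4.53 in the other libraries. It did not pass (edgeR adjusted p = 0.135) but did with the component as a covariate (0.00595) and in DESeq2 (adjusted p = 0.00382), and 4 of the other libraries were as low.

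**Figure D4:**
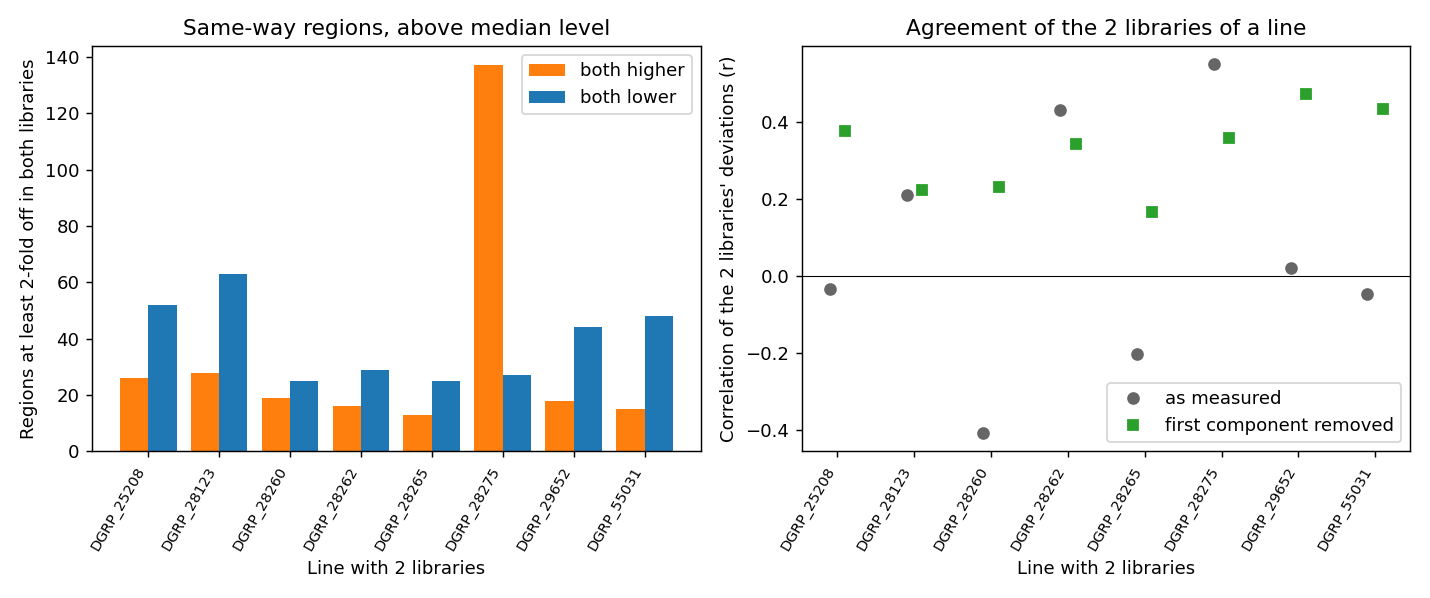
The 8 lines with 2 libraries, DGRP_25208 first. The left panel counts regions above the median level in which both libraries lie at least 2-fold above (orange) or below (blue) the mean of their kind, with 26 and 52 in DGRP_25208, and the right panel gives the correlation of the 2 libraries' deviations across regions, as measured (circles) and with the first component removed (squares), with -0.033 and 0.38 in DGRP_25208.

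Consecutive regions that moved together by at least 1.5-fold in both libraries formed longer runs where the line was lower. Lower regions of this size were also more common, with 1113 lying alone against 363 higher ones. The run lengths of the 2 directions therefore cannot be compared on their own. The longest run held 7 regions on 3L from 10053389 to 10060754, with median deviations of -1.80 in replicate 1 and -1.49 in replicate 2. The line had 0 to 2 counts per region in replicate 1 and 2 to 9 in replicate 2. The highest other library reached 5.41 to 7.33 log2 CPM in these regions while the medians lay between 0.85 and 2.47. No region of the run was called, with or without the component. A run of 6 lower regions on 3L from 13549943 to 13575067 had median deviations of -1.51 and -1.60, and 2 of its regions were called with the component as a covariate. Of the higher runs the longest had 4 regions on X from 5230201 to 5236115, with median deviations of 1.10 and 1.40. Its first region, X:5230201-5230772, was called (log2 fold change 2.34, edgeR adjusted p = 0.0431) and all 4 were called with the component. The next had 3 regions on X from 20266 to 38715, with median deviations of 1.46 and 1.37. None was called, and 2 were with the component.

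The shares of regions in which both libraries went the same way differed between arms, most on chromosome 4. On chromosome 4, the small, largely heterochromatic chromosome of the fly, both DGRP_25208 libraries were higher in 113 of 247 regions (45.7%) and lower in 20 (8.10%), against 20.7% and 25.7% over the whole table. The mean count per region on chromosome 4 relative to that on 2L, 2R, 3L and 3R was 1.09 and 1.08 in the 2 DGRP_25208 libraries, against 0.923 ± 0.057 (SD, n = 15) without and 0.893 ± 0.083 (SD, n = 14) with the suffix in the other lines. Both values lay above the highest other library, at 1.04, and this ratio was picked after the shares by arm were seen. No single chromosome 4 region was called, and 8 were higher and 1 lower with the component as a covariate. X held 5435 of all 30774 regions and 8 of the 44 called, which is near its share of all regions. These were 7 of the 31 called higher and 1 of the 13 called lower. Of the higher ones B, C and X:10248483-10250016 belong to the 7 long regions that ran together. Above the median level X held 2648 of 15387 regions, 10 of the 26 at least 2-fold higher and 2 of the 52 at least 2-fold lower. The X to autosome ratio was 0.940 and 1.01 in DGRP_25208, against 0.948 ± 0.119 (SD, n = 15) without and 0.905 ± 0.095 (SD, n = 14) with the suffix, within the range of 0.708 to 1.08. With that ratio as a covariate 28 of the 44 regions passed, 5 of the 8 on X among them, and its part in the calls on X was not tested further.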

How the data were processed

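The authors deposited raw read counts per region for 31 DGRP libraries over 1 merged set of regions on dm3. Per the submitters' processing notes the tools were Bowtie2, MACS2, featureCounts and DESeq2. The handling of duplicates, multiply matching reads and the transposase offset is not stated in the labels. Each of these steps can move counts in repeated sequence. Library totals ran from 1110755 to 12758783 counts. Lines were grouped by the genotype label. No genome of that build was used, so no sequence is shown.

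Counts were fitted with edgeR 4.0.16 in R 4.3.3 (TMM, robust quasi-likelihood F-test, Benjamini-Hochberg over all tested regions) with a coefficient per line plus a suffix term (7 residual degrees of freedom). DGRP_25208 was set against the mean of the other 22 coefficients. Regions were tested where 2 or more libraries reached the CPM that 10 counts give in a library of median size. The SE is the log2 fold change divided by the root of F. The first component was computed from log2 CPM of regions above the median level in the 29 other libraries, and the DGRP_25208 libraries were projected onto it. Other tests were limma 3.58.1 (voom) and DESeq2 1.42.0. The fit was also run on simulated counts with the same spread in every region. These held no differences between the other lines, no suffix effect and no shared component. That run therefore does not show how the fit behaves where the data have these features.

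Named regions were the 6 per direction with the smallest p without and with the component among those going the same way in both libraries, the 6 with the greatest shared deviation, up to 5 with the widest gap to all other libraries, and the 2 longest runs. The comparison, this rule and the alternatives were chosen with earlier results of these data known. Regions singled out for zero counts, neighbours, length or sharing with other lines were chosen after their values were seen.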

Additional observations from a re-analysis of the deposited data

Results flagged for a closer look

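Among 8 sets of 8 values, 1 value per line with 2 libraries, 3 stood apart from the rest of their set, where chance sets apart about 1 in 20. The X to autosome ratio of DGRP_25208 replicate 2 was 1.01, against 0.902 in the next of the 8 libraries with the suffix (median 0.870). Lines with 1 library were not in these sets, and 3 of their libraries with the suffix had a higher ratio, up to 1.07 in DGRP_25194. Of these libraries DGRP_29652 replicate 2 had 11840103 counts against 6283136 in the next. DGRP_28275 had 164 regions at least 2-fold from the mean of their kind in both libraries, against 91 in the next line and 78 in DGRP_25208. With the first component removed DGRP_28275 had 10 higher and 16 lower regions, and DGRP_25208 had 17 and 60.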

How the results depend on the processing

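The 44 regions called in DGRP_25208 became 463 with the first component of the 29 other libraries as a covariate, 459 with that of all 31, 130 with DESeq2 (37 of the 44 kept, 5 without an adjusted p), 71 in the 16 libraries of the 8 lines with 2, 68 with a mean count of at least 50, 28 with a covariate for the X to autosome ratio, 16 with limma voom (all higher) and 8 at an adjusted p of 0.01. The cause of these changes was not tested. Leaving out in turn each of the 16 libraries of the 8 lines with 2 gave 0 to 41 regions; the lines with 1 library were not left out. The count was 0 without DGRP_25208 replicate 2 (2538 at an unadjusted p under 0.05 in edgeR) and 1 without replicate 1, where the lone library is assumed to vary like the other lines, and 31 to 41 without a library of another line. Total counts, DESeq2 size factors, no filter, no suffix term and thinning to the shallowest library gave 34 to 59. Of the 34 regions called after thinning, 28 were among the 44 (23 higher and 5 lower). The direction of the 44 was kept wherever they were tested. With either DGRP_25208 library alone this was largely fixed in advance by their same-way deviations. The correlation of the 2 libraries' deviations was 0.377 with the component removed. The 78 regions at 2-fold became 474 (88 higher, 386 lower) over all regions, where counts are low. The titles of these libraries carry no replicate numbers by which libraries of unlike lines could be paired. The fit carried a suffix term beside the line coefficients, but the labels do not say what the suffix stands for. Without the suffix term 39 regions passed. Replicate 1 had a median of 17 counts per region, which limits the precision in weak regions.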
